A study of Mus musculus with 2 samples.

Results

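Glutamate is the main excitatory transmitter of the vertebrate central nervous system. A set of 32 genes covers its receptors and its handling: 4 AMPA, 5 kainate and 7 NMDA receptor subunits, 1 delta receptor, 7 metabotropic receptors, 3 vesicular transporters, 4 plasma membrane transporters and glutamine synthetase. The genes were taken by their symbols, and all 32 were found among the 43346 gene identifiers of the deposited tables. The libraries were made from neural tube, from which brain and spinal cord develop, of healthy B6NCrl mouse embryos at embryonic day 11.5. There was 1 group with 2 libraries, which the labels number as biological replicates: replicate 1 from a pool of 109 embryos and replicate 2 from a pool of 88, males and females together in each. Each library was made from 10 ng of RNA longer than 200 bases with synthetic spike-in RNAs. No genotype, treatment or other age was compared, so the questions are which glutamate genes the tissue held, at what level, in which transcript form, and how far the pools differed.

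AMPA, kainate and NMDA receptors are ion channels of 4 subunits that glutamate opens; they carry most fast excitatory transmission. Metabotropic receptors act through G proteins. Vesicular transporters load glutamate into synaptic vesicles, and plasma membrane transporters clear it from outside the cell, in the adult brain mainly into astrocytes, where glutamine synthetase turns it into glutamine. In the embryo some of the same genes are used by cells that have not formed synapses: Slc1a3 is a known gene of radial glia, the dividing progenitors of the neural tube.

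The libraries held 27638068 and 29166901 expected counts, and the 32 genes took 12961 and 13497 of them, 0.0497% and 0.0487% of the counts on genes. The tissue label fits its markers: all 8 neural progenitor markers and all 10 neuron markers were detected, led by Vim and Fabp7 and by Tubb3 and Nefl. Of the sensory ganglion and neural crest markers 7 of 8 were detected, all but Avil (0.43 and 0.63 TPM). All of the 6 skeletal muscle, 6 mesenchyme, 6 endothelial, 6 macrophage and 6 erythroid markers were detected too. Whether this RNA came from inside the neural tube or from tissue around it was not tested. Erythroid markers had the highest summed level of the cell type lists, 10394 and 10441 TPM, against 2205 and 2530 TPM for neuron markers. Oligodendrocyte lineage markers were detected in 4 of 6 cases and astrocyte markers in 2 of 6. The astrocyte markers ranged widely: Gja1, which progenitors also express, had 121 TPM, Aldoc 2.74 TPM, Aldh1l1 1.45 TPM (2.17 and 0.72 in the libraries), S100b 0.225 TPM, Aqp4 0.135 TPM and Gfap 0.12 TPM, the last 3 on 14 counts or fewer per library. No gene of any list had 0 counts in both libraries. In whole tissue, fewer cells of a type and less RNA per cell cannot be told apart, and neither can RNA of neural tube neurons and of sensory ganglion neurons.

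A form of AMPA receptor RNA is visible in these data, because each AMPA subunit gene carries a pair of alternative exons, flip and flop, of which a mature coding transcript normally keeps 1. They encode a stretch next to the ligand binding site that sets how fast the channel desensitizes and how it responds to some drugs. The 4 exons of Gria1 and Gria2, each 115 bases long, are printed 5′ to 3′ on the strand of the gene, from GENCODE M21 transcripts on GRCm38, to show how much sequence separates the forms; capitals mark the bases at which the flip and the flop exon of the same gene differ. The Gria1 exons lie at chr11:57310608-57310722 (flip) and chr11:57309769-57309883 (flop), both on the plus strand. The Gria2 exons lie at chr3:80690404-80690518 (flip) and chr3:80691320-80691434 (flop), both on the minus strand.
Gria1 flip: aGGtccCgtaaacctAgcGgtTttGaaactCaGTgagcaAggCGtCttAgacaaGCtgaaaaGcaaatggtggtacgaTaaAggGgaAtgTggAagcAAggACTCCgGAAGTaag
Gria1 flop: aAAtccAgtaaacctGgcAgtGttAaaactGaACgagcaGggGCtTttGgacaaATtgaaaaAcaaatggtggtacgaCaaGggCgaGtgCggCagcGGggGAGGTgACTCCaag
Gria2 flip: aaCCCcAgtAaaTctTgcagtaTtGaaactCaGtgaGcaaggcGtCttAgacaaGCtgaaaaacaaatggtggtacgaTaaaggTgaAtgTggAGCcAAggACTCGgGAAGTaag
Gria2 flop: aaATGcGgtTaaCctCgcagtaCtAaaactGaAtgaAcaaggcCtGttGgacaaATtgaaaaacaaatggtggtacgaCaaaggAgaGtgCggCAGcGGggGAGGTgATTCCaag
The forms differed at 36 of 115 bases in Gria1 and in Gria2, at 32 in Gria3 and at 31 in Gria4. The same form was more alike between genes than the 2 forms were within a gene: flip exons of different subunits were 87.8% to 92.2% identical and flop exons 87.8% to 94.8%, against 68.7% between the forms of Gria1 or Gria2, 72.2% in Gria3 and 73.0% in Gria4.

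Of the 32 genes, 20 were detected, meaning 1 TPM or more in both libraries. TPM divides counts by transcript length and scales them to a common total in each library, so levels of different genes can be set side by side. The share, 62.5%, was near that of all protein-coding genes (59.9%) and above that of all gene identifiers (33%). The median level was low: 1.56 TPM over the 32 genes against 4.40 TPM over 21474 protein-coding genes, and 2.62 TPM over the 20 detected genes against 19.9 TPM over all detected protein-coding genes. Only 6 genes reached 10 TPM in both libraries: Glul, Slc1a3, Slc17a6, Grm2, Gria2 and Slc1a2. Another 14 lay between 1 and 10 TPM in both, 2 (Grid1 and Grm8) passed 1 TPM in 1 library, and 10 were below 1 TPM in both. In the order of mean levels, 8 of the 31 pairs of neighbours had library values that did not overlap. Among the 6 highest genes the exception was Grm2 and Gria2, whose values overlapped.

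**Figure D1:**
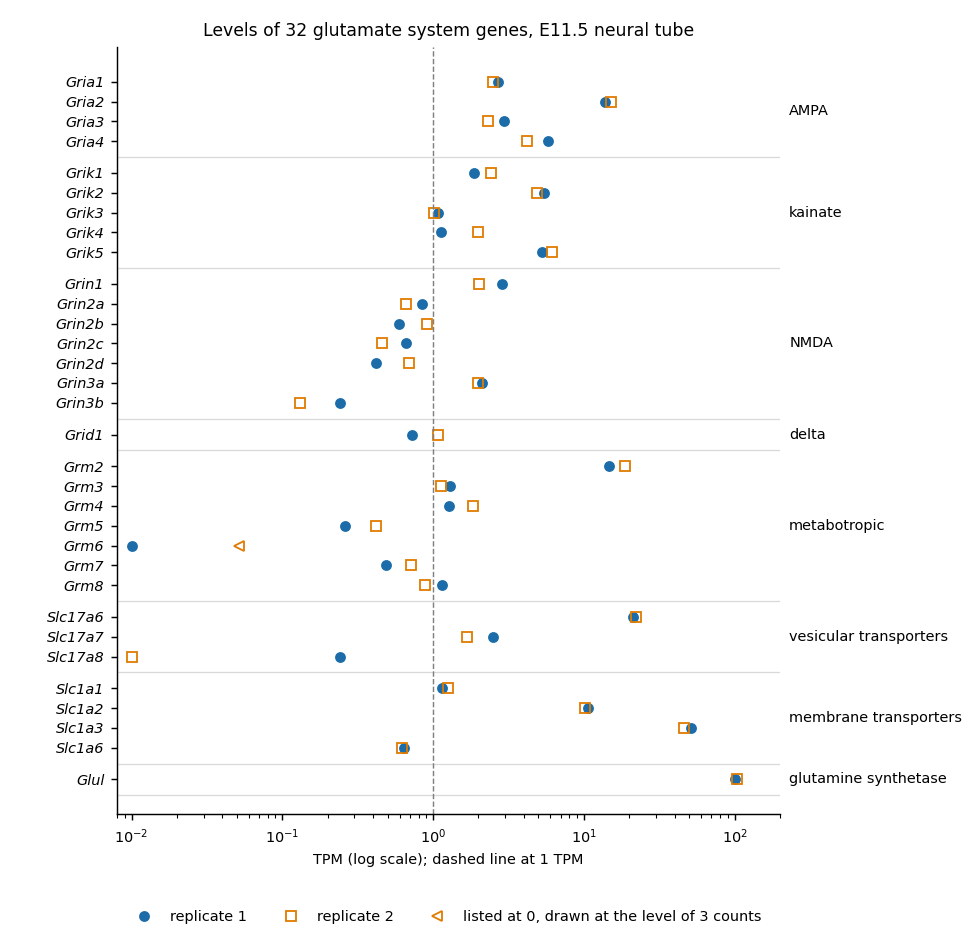
TPM of each of the 32 genes in each library on a log axis, grouped by role, with filled circles for replicate 1, open squares for replicate 2, and a triangle for Grm6 in replicate 2, listed at 0 and drawn at the level 3 counts would give (0.0515 TPM). The AMPA and kainate subunits all lie at or above the dashed line of 1 TPM, while the 4 Grin2 genes lie below it in both libraries.

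AMPA subunits were all detected, and Gria2 was the highest of them. Gria2 encodes GluA2, the subunit whose edited form makes AMPA receptors poorly permeable to calcium (ENSMUSG00000033981.10, chr3:80681450-80802835, minus strand). Its level was 13.8 TPM in replicate 1 and 15.11 TPM in replicate 2, a mean of 14.5 ± 0.926 TPM (SD, n = 2). Gria4, a subunit known from early hippocampal development, had 5.79 and 4.17 TPM. Gria3 had 2.96 and 2.31 TPM, and Gria1, the subunit best known from hippocampal plasticity, had 2.71 and 2.51 TPM. The values of Gria3 and Gria1 overlapped, and those of Gria2 and Gria4 stood apart from each other and from both. Together the 4 genes reached 24.7 ± 0.820 TPM, of which Gria2 made up 54.6% and 62.7% (mean 58.7% ± 5.70). With all counts placed on 1 complete reference transcript per gene, the share was 65.0% ± 4.08. Gene levels do not show whether the RNA was edited, and the deposited values hold no measure of editing.

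The estimated level of the flip form was above that of the flop form in all 4 genes and both libraries, but the deposited intervals separated the forms in both libraries only in Gria2. Coding transcripts of Gria2 with the flip exon had 4.87 and 6.28 TPM, and those with the flop exon 1.29 and 1.41 TPM, a flip share of 80.4% ± 1.84. By counts the Gria2 forms were closer, with 332.42 and 442.89 for flip and 229.81 and 259.9 for flop. The TPM share therefore leans on the unlike lengths of the 2 transcripts, and reads over the exons themselves were not counted. The deposited intervals of the 2 forms of Gria2, whose confidence level the sources used here do not give, did not overlap in either library. The flip share of Gria1 was 69.0% ± 2.11, of Gria3 92.9% ± 6.22 and of Gria4 71.7% ± 16.4. The spread in Gria4 was wide, with 83.3% in replicate 1 and 60.1% in replicate 2, and its intervals overlapped. In Gria1 and Gria3 a form has 2 transcripts, and intervals were compared between single transcripts. The interval of the leading flip transcript overlapped that of a flop transcript in both libraries for Gria1 and in replicate 1 for Gria3. Gria3 rested on 8.88 and 2.19 counts of the flop form, and under the posterior mean estimate its flip share was 77.2%. The shares also draw on differences outside the exon pair. The flip and flop transcripts of Gria2 are 4026 and 10371 bases long, and the leading ones of Gria1 5546 and 5399 bases. Only those of Gria4 have the same length in the deposited table (5441 bases).

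**Figure D2:**
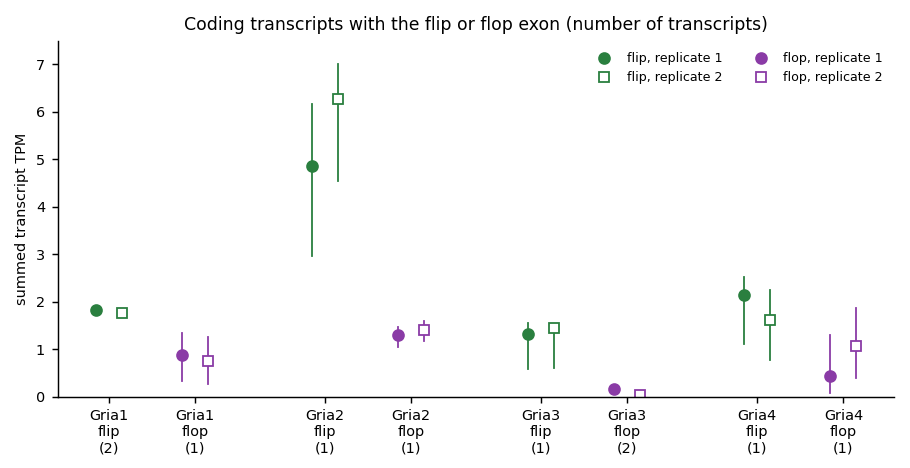
Summed TPM of coding transcripts that carry the flip (green) or the flop exon (purple) in the 4 AMPA subunit genes, with filled circles for replicate 1, open squares for replicate 2 and the number of transcripts in brackets. Vertical lines are the deposited intervals, drawn where a form has 1 transcript; in Gria2 the flip values of 4.87 and 6.28 TPM stand above the flop values with intervals apart.

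Much of the Gria2 signal lay outside coding transcripts. Transcripts annotated as retained introns, and 1 marked for nonsense-mediated decay, took 55.4% of Gria2 TPM in replicate 1 and 49.1% in replicate 2. The decay-marked transcript Gria2-203 had 28.4% and 15.3%. The retained-intron transcript Gria2-206 had 18.6% and 20.9%. In Gria3 transcripts not annotated as coding took 50.2% and 35.5%. Gria4 also had a short coding form, Gria4-203, 2338 bases long, at 55.6% and 35.8% of the gene's TPM.

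Kainate subunits were all detected too, at lower levels. The sum of the 5 genes was 15.7 ± 1.21 TPM, below the AMPA sum in both libraries. Grik5, which encodes an auxiliary subunit that does not form channels alone, had 5.29 and 6.19 TPM, and Grik2, a subunit that does, had 5.46 and 4.90 TPM. Their ranges overlapped, and they held 36.6% and 33.3% of the kainate sum. Grik1 had 1.86 and 2.41 TPM. Grik4, the other auxiliary subunit, had 1.12 and 2.00 TPM, and Grik3 had 1.08 and 1.02 TPM, just inside the detection limit, which it missed in replicate 2 under the posterior mean estimate (0.99 TPM). A leading transcript of Grik2 with 72.4% and 85.1% of the gene is not in GENCODE M21 and was not described further.

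NMDA receptors combine the obligatory subunit encoded by Grin1 with Grin2 subunits, which bind glutamate, or Grin3 subunits, which bind glycine. Here 2 of 7 genes were detected, Grin1 and Grin3a, and none of the 4 Grin2 genes was, though Grin2b passed the limit under the posterior mean estimate, at 1.09 and 1.22 TPM. Grin1 had 2.86 and 2.01 TPM and Grin3a 2.11 and 2.00 TPM, and their ranges overlapped. Of the Grin2 genes, Grin2a had 0.84 and 0.66 TPM, Grin2b 0.59 and 0.91 TPM, Grin2c 0.66 and 0.46 TPM and Grin2d 0.42 and 0.69 TPM. These are low but not 0, resting on 22 to 87 counts per library, and each gene's range met that of at least 1 other. Grin3b had 0.24 and 0.13 TPM on 7.35 and 7.21 counts. The sum of the 7 genes was 7.29 ± 0.608 TPM, and Grin1 and Grin3a held 33.2% and 28.2% of it.

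The order among the Grin2 genes depended on short transcripts. In deposited TPM, Grin2b over Grin2a had a mean log2 ratio of -0.02 ± 0.69 (SD, n = 2), with opposite signs in the 2 libraries (-0.51 and 0.46). By counts, Grin2b had 87 and 79 and Grin2a 24 and 22. A retained-intron transcript of Grin2a, 1099 bases long, held 81.0% and 77.3% of that gene's TPM on 11.8 and 9.18 counts. With counts placed on 1 reference transcript, Grin2a came to 0.303 ± 0.0253 TPM and Grin2b to 0.637 ± 0.0574 TPM, a log2 ratio of 1.07 ± 0.01 with the same sign in both libraries. The level of Grin2b in replicate 2 drew on a 703-base incomplete transcript, Grin2b-204, with 0.57 TPM from 6.19 counts, against 0.04 TPM in replicate 1. Grin2b over Grin2d had a log2 ratio of 0.44 ± 0.06 in deposited TPM. The small spread did not hold on the reference-transcript scale, where the ratio was 0.74 ± 0.60 (1.17 and 0.31 in the libraries). All Grin2 genes stayed below 1 TPM on the reference-transcript scale.

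Grin1 is spliced at a cassette in the extracellular part, known to change the channel's response to protons, and at a cassette in the intracellular tail that holds a signal for retention in the endoplasmic reticulum. The cassettes are shown because transcripts that carry them took most of the Grin1 level; they lie on the minus strand at chr2:25311343-25311405 and chr2:25294438-25294548 and are printed in lower case throughout, since no base within them is singled out.
Grin1 63-base exon: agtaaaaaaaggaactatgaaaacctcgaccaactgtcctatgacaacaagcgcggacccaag
Grin1 111-base exon: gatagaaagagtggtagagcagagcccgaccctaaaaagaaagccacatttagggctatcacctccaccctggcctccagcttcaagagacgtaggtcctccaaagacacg
Coding transcripts with the 63-base exon took 100% and 88.4% of the coding Grin1 TPM, and those with the 111-base exon 84.4% in each library. The share of the 63-base exon was 63.5% ± 12.7 under the posterior mean estimate and that of the 111-base exon 78.3% ± 1.90. Counts without the 63-base exon were 0 and 15.2, so its share is loosely fixed at this depth. Grin1os, an antisense gene that covers 13.5% of the Grin1 exon bases, had 0.02 TPM in each library.

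Grid1 encodes a delta receptor, an organizer of synapses that glutamate does not gate in the usual way. It had 0.72 and 1.07 TPM, on 62 and 89 counts, and stood on either side of the detection limit.

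Metabotropic receptors were led by Grm2. Grm2 encodes a receptor that lowers cyclic AMP and is known as a presynaptic brake on glutamate release (ENSMUSG00000023192.9, chr9:106643095-106656082, minus strand). It had 14.76 TPM in replicate 1 and 18.63 TPM in replicate 2, a mean of 16.7 ± 2.74 TPM. That was 77.8% ± 1.52 of the 21.4 ± 3.10 TPM of all 7 metabotropic genes. Its library values overlapped those of Gria2 and stayed below those of Slc17a6. Grm3, the other receptor of its group, had 1.30 and 1.12 TPM, and Grm4, of the group that includes Grm6, Grm7 and Grm8, had 1.27 and 1.84 TPM. Grm8 had 1.14 and 0.89 TPM, a mean of 1.02 TPM that became 0.610 TPM on 1 reference transcript, because incomplete short transcripts took 65.2% and 43.3% of its level. Grm7 had 0.49 and 0.71 TPM. Grm5, a receptor that couples to calcium release, had 0.26 and 0.42 TPM. Grm6, known from retinal bipolar cells, had 1 count in replicate 1 and 0 in replicate 2, where 3 counts would have been 0.0515 TPM. An antisense gene, Gm28111, overlaps 9.60% of Grm2 exon bases and had 0.36 and 0.30 TPM.

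Slc17a6 was by far the highest vesicular transporter. It encodes VGLUT2, which marks glutamate neurons of the spinal cord, brainstem and sensory ganglia (ENSMUSG00000030500.5, chr7:51622006-51671119, plus strand), and had 21.13 and 22.32 TPM on 1551 and 1691 counts. Slc17a7, which encodes VGLUT1, had 2.51 and 1.69 TPM. The log2 ratio of Slc17a6 over Slc17a7 was 3.07 in replicate 1 and 3.72 in replicate 2, a mean of 3.40 ± 0.46, equal to 10.5-fold. Slc17a8, which encodes VGLUT3, had 0.24 TPM from 18 counts in replicate 1 and 0.01 TPM from 1 count in replicate 2. Slc17a6 thus made up 88.5% and 92.9% of the vesicular sum of 24.0 ± 0.0990 TPM. Isl1 and Pou4f1, the highest of the sensory ganglion and neural crest list, had 97.7 and 68.8 TPM, and Avil, the lowest, had 0.53 TPM. How much of the Slc17a6 level came from ganglia was not tested.

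Plasma membrane transporters were led by Slc1a3, which encodes GLAST (ENSMUSG00000005360.10, chr15:8634124-8710764, minus strand). Slc1a3 had 51.53 and 46.39 TPM, a mean of 49.0 ± 3.63 TPM, and 80.0% ± 0.829 of the group's sum of 61.2 ± 3.91 TPM. Slc1a2, which encodes GLT-1, the main transporter of the adult forebrain, had 10.66 and 10.17 TPM. Slc1a3 was above Slc1a2 by a log2 ratio of 2.27 and 2.19 (mean 2.23 ± 0.06), equal to 4.70-fold, and by 3.68-fold under the posterior mean estimate. Slc1a1, the transporter of neurons, had 1.14 and 1.26 TPM, and Slc1a6, known from Purkinje cells of the cerebellum, had 0.64 and 0.62 TPM. The values of the 4 genes did not overlap. An opposite-strand gene, 4430402I18Rik, covers 31.9% of the Slc1a1 exon bases and had 0.16 and 0.47 TPM.

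Glul, which encodes glutamine synthetase (ENSMUSG00000026473.11, chr1:153899944-153909723, plus strand), had the highest deposited level of the set, with 99.94 and 104.35 TPM (mean 102 ± 3.12 TPM). That rank rested on short transcript models. The complete transcript Glul-201 took 21.2% and 19.5% of the TPM but 992.66 and 983.80 of 1691.66 and 1719.36 counts. The incomplete models Glul-202 and Glul-203, 681 and 379 bases long, took 77.5% and 80.0%. With all counts on the complete transcript, Glul came to 35.8 ± 0.382 TPM and Slc1a3 to 42.7 ± 2.86 TPM. Glul over Slc1a3 was 2.09-fold in deposited TPM and 0.840-fold on the reference-transcript scale, so the order of these genes turned with the scale. Glul, Slc1a3 and Slc1a2 are astrocyte genes in the adult. The 6 astrocyte markers, from Gfap at 0.12 TPM to Gja1 at 121 TPM, summed to 124.9 and 126.5 TPM, and which cells gave the levels of Glul, Slc1a3 and Slc1a2 was not tested.

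**Figure D3:**
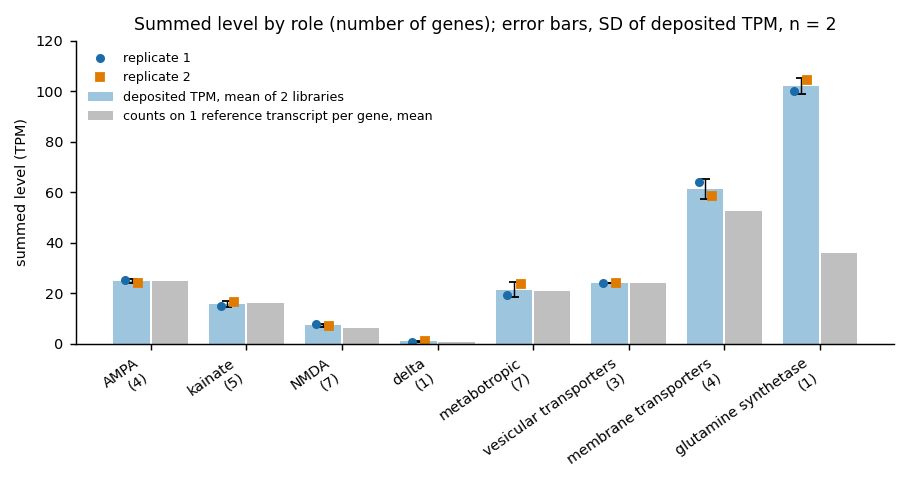
Summed TPM of each role group: blue bars show the mean deposited TPM with SD (n = 2) and the points of each library, grey bars the mean when all counts of a gene are placed on 1 reference transcript; the number of genes is in brackets. Glutamine synthetase drops from 102 to 35.8 TPM between the scales and the membrane transporters from 61.2 to 52.5 TPM, while the vesicular transporters stay at 24.0 and 23.9 TPM.

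Of 53 other genes of the glutamate system, in 5 lists, 47 were detected, a share that has no test here and depends on the genes chosen. Of 14 auxiliary subunits of AMPA and kainate receptors 9 passed the detection limit, with a median of 1.77 TPM over the list. Cnih2, a cornichon that escorts AMPA receptors to the surface, had 91.7 ± 7.40 TPM, above every AMPA subunit. Cacng4, a TARP that modulates AMPA receptor gating, had 21.7 ± 2.50 TPM, Neto2, an auxiliary subunit of kainate receptors, 18.8 ± 0.474 TPM, and Gsg1l, another AMPA auxiliary subunit, 5.05 ± 0.714 TPM. Neto1, the paralog of Neto2, had 0.245 ± 0.00707 TPM and Shisa9 0.64 ± 0.0141 TPM. Neto2 stood above Neto1 in both libraries without overlap.

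The 17 postsynaptic scaffold and signalling genes were all detected and had a median of 3.89 TPM. The highest were Homer3, which links metabotropic receptors to calcium stores, at 62.0 ± 0.643 TPM, and Pick1, which binds GluA2, at 22.3 ± 1.17 TPM. Dlg1, which encodes SAP97, had 18.3 ± 1.61 TPM and Grip1, another GluA2 binder, 12.8 ± 0.0707 TPM.

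Of 11 metabolism and supply genes 10 were detected, with a list median of 35.4 TPM. The glutamine transporters Slc38a2 and Slc38a1 had 165.9 ± 0.813 and 50.4 ± 4.16 TPM. Glud1, glutamate dehydrogenase, had 78.5 ± 1.85 TPM and Got2, the mitochondrial aspartate aminotransferase, 63.9 ± 0.919 TPM. All 8 genes of NMDA co-agonist supply were detected as well, with serine hydroxymethyltransferases Shmt2 and Shmt1 at 57.1 ± 6.21 and 33.8 ± 1.53 TPM. Srr, which makes D-serine, had 24.3 ± 3.08 TPM and Slc1a4, a neutral amino acid transporter, 17.3 ± 1.17 TPM. Most of these genes also serve general metabolism in other cells. The 3 genes of the editing enzyme family were detected: Adar at 16.7 ± 2.90 TPM, Adarb1, the enzyme known to edit Gria2 RNA, at 4.04 ± 0.0354 TPM, and Adarb2, a relative without known editing activity, at 2.18 ± 0.304 TPM.

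**Figure D4:**
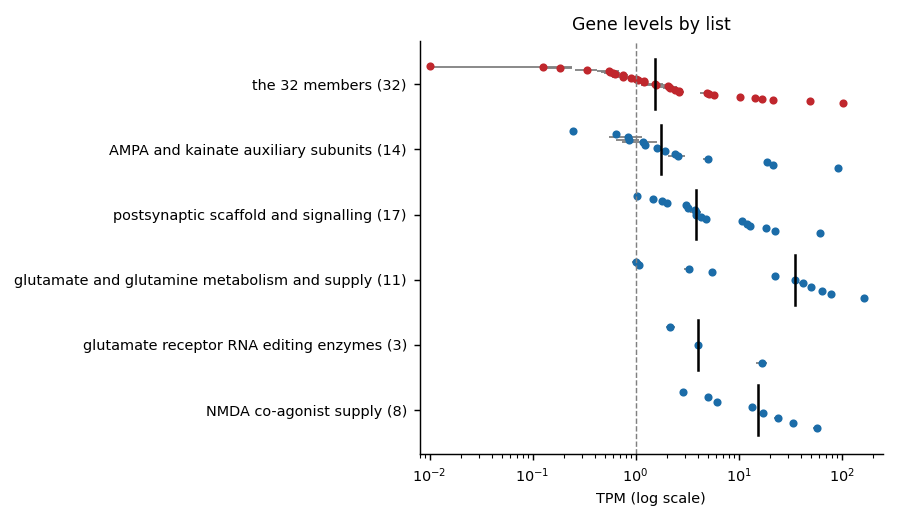
Mean TPM of each gene (points) on a log axis for the 32 genes (red) and for 5 lists of related genes (blue), with thin grey lines between the library values, black bars at the median of each list, the dashed line at 1 TPM and values under 0.01 drawn at 0.01. The median of the 32 genes, 1.56 TPM, lies near that of the auxiliary subunits, 1.77 TPM, and the metabolism list has the highest median, 35.4 TPM.

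The pools were compared gene by gene with a two-sided exact binomial test of the rounded counts against scaled library sizes, adjusted by Benjamini-Hochberg over 17219 genes with 10 counts in at least 1 library. With 1 library on each side it compares these libraries, not conditions, and covers counting error only. Of the 32 genes 30 passed the count filter, all except Grm6 and Grin3b, and 6 were called, which is 20% beside 19.6% of all genes tested. Grik4 and Grm2 were higher in replicate 2 (10.2% of all genes were called in that direction). Grin1, Slc17a7, Slc17a8 and Slc1a3 were lower (9.45%). The share called was thus near that of all genes. Of the 6, 3 (Grik4, Slc17a7 and Slc17a8) also passed 1.5-fold, 10% of the 30 genes beside 3.74% of all genes tested. The median absolute log2 ratio was 0.24 for the 30 genes and 0.12 for all genes tested and neither difference was tested. The 2 sets were not matched for counts, and ratios of genes with few counts spread more by counting error alone. Under a test that allows for spread between libraries 1 gene was called (edgeR's exact test with a common dispersion, Slc17a8). That spread was estimated from these same 2 libraries, so the differences tested were also counted as spread, which lowers the number of calls.

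Grik4 had 73 counts in replicate 1 and 134 in replicate 2, a 1.71-fold difference (exact binomial test, adjusted p = 0.00214). For Grm2, with 827 and 1077 counts, the difference was 1.22-fold (exact binomial test, adjusted p = 0.00024). In the other direction, Slc1a3 had 3162 and 2968 counts, 0.883-fold (exact binomial test, adjusted p = 3.42e-05), a small difference made visible by depth. Slc17a7 went from 124 to 86 counts, 0.658-fold (exact binomial test, adjusted p = 0.019), and Grin1 from 190 to 148, 0.735-fold (exact binomial test, adjusted p = 0.0314). Slc17a8 had 18 counts against 1 (exact binomial test, adjusted p = 0.000716), a ratio of 0.0523 with a 95% Clopper-Pearson interval of 0.00125 to 0.331. Gria3 and Gria4, with adjusted p of 0.0549 and 0.0523 in the same exact test, missed the threshold.

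Markers of several cell types were also called by the same exact test, which covers counting error only and calls small shifts in genes with many counts; over all genes 10.2% were called higher in replicate 2 and 9.45% lower. Of 10 neuron markers 8 were higher in replicate 2, and their summed TPM went from 2205 to 2530. Sensory ganglion and crest markers were higher in 4 of 8 cases (Isl1, Pou4f1, Prph and Sox10), with sums of 240.5 and 298 TPM. Skeletal muscle markers were lower in replicate 2 in 5 of 6 cases, with sums of 466 and 388 TPM, and mesenchyme markers in 6 of 6, with sums of 761 and 697 TPM. Of 8 progenitor markers 2 were higher and none lower, with sums of 2097 and 2168 TPM. The part of these cell types in the differences of Grik4, Grm2, Grin1, Slc17a7, Slc17a8 and Slc1a3 was not tested. In the lists of related genes 10 of 53 were called, 18.9% beside 19.6% of all genes tested: Cacng4, Cacng5, Slc38a1, Got1, Adar, Shmt2 and Srr were higher in replicate 2 and Cacng3, Shisa6 and Homer1 lower; Cacng5, Cacng3, Shisa6, Homer1 and Got1 are named here after their values were seen.

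**Figure D5:**
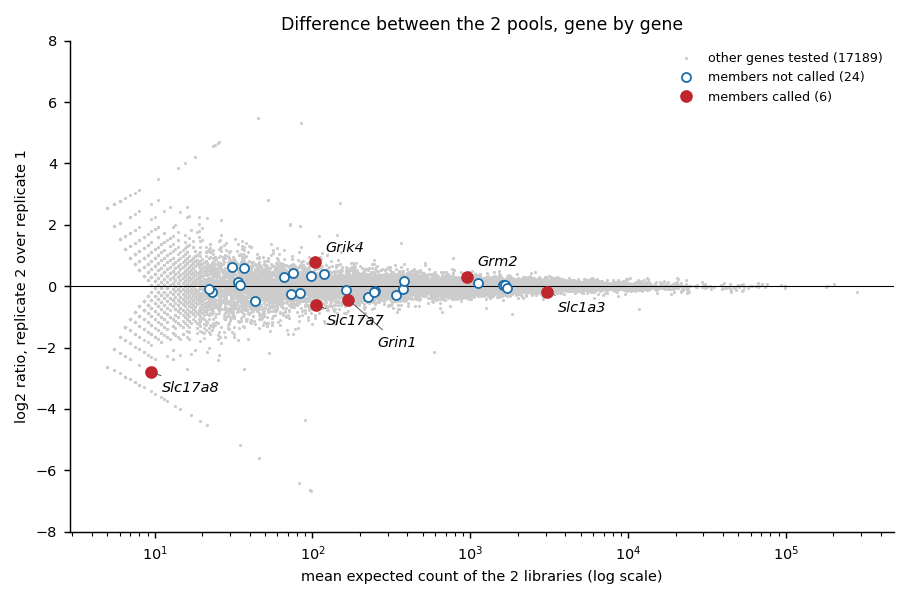
Log2 ratio of replicate 2 over replicate 1 against the mean expected count (log axis) for all 17219 genes tested: grey dots are other genes, open circles the 24 glutamate genes not called and red circles the 6 called by the exact binomial test. Slc17a8 stands lowest at about 10 counts, and Slc1a3, with the most counts, differs least of the 6.

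The leading transcript of a gene was mostly the same in both pools, though its share could differ between them. Of the 20 detected genes 6 have 1 annotated transcript and 14 have several. In 13 of these 14 the transcript with the largest share was the same in both libraries, and Gria4 was the exception, with Gria4-203 leading in replicate 1 and Gria4-202 in replicate 2. Slc1a3-201 held 80.6% and 81.7% of Slc1a3, and Slc1a2-202, a transcript of 11595 bases, 71.2% and 79.2% of Slc1a2. Some leading shares moved more: Grik1-201 held 69.2% of Grik1 in replicate 1 and 42.1% in replicate 2, and Gria3-201 44.0% and 62.8% of Gria3. Grin1-204 held 71.1% and 80.4% of Grin1, but 37.6% and 28.2% under the posterior mean estimate. Differences in share between the libraries were not tested. In 20 of the 32 genes no stretch of 100 bases occurred in another gene, and in the other 12 the gene sharing most was in no case a member. Of the Grin3b exon bases 32.1% overlap Tmem259 on the opposite strand (13.75 and 12.74 TPM), so the low counts of Grin3b cannot be assigned with certainty. In Grin2a, with 24 and 22 counts, 10.7% of the stretches of 100 bases occurred in another gene, and Gm7328 shared the most. How many Grin2a counts came from shared stretches was not tested.

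RefSeq promoter windows on GRCm38.p6, from 250 bases before to 50 after the start, were matched for 23 of the 32 genes. Their median observed over expected CpG ratio was 0.559, against 0.389 over 27025 promoters, as a description without a test. The median was 0.641 for the 15 detected genes among them and 0.449 for the 8 not detected, with a ratio of 0.6 or more in 53.3% and 37.5%. All 6 genes above 10 TPM were matched, and they spanned a wide range: Slc1a2 had 0.0641, Slc1a3 0.197, Slc17a6 0.319, Glul 0.559, Grm2 0.641 and Gria2 0.804.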

How the data were processed

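The authors deposited expected counts and TPM values for genes and transcripts, on mm10 with GENCODE M4, per the labels and the file descriptions. The deposited TPM values include the spike-ins, which took 13.2% and 11.8% of them; the percent of each transcript within its gene was also deposited. Each file also gives posterior mean estimates and an interval around them, which need not hold the TPM itself. Effective lengths were 99 bases below the lengths, so a few counts give a short transcript a high TPM. The sources used here give no aligner, quantifier or strand, so reads of opposite-strand genes that overlap were taken as inseparable. The assay title in the labels is total RNA-seq but a SmartSeq protocol is linked, and which describes the libraries was not settled.

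The genes and lists were chosen with earlier results of these data known. All 32 genes are reported. Of each related list the 4 highest genes and up to 2 below 1 TPM in both libraries are named. Of cell type lists the 2 highest are named where a result turned on them, and all 6 astrocyte markers. Of these astrocyte markers 4 were added after their values were seen, as were Avil, Prph and Sox10. GENCODE M21 on GRCm38 gave symbols and coordinates (42462 of 43346 identifiers matched), and the tests left out 26248 entries with a number for a name and 97 spike-ins. Levels are mean TPM ± SD over 2 libraries. Expected counts were rounded, scaled with TMM factors (edgeR 4.0.16, R 4.3.3; DESeq2 1.42.0 size factors as an alternative), and given as log2 ratios with a prior count of 2. Exact binomial p-values were computed in Python 3.11.15 with scipy 1.17.1 and adjusted at 0.05. Tested on simulated counts for replicate 2 with replicate 1, this called 199 of 200 changed genes and 7 of 16630 unchanged ones among 16830. The simulated counts held counting error only, without spread between pools. Changed genes were moved 2-fold up or down and had at least 200 counts over both libraries. The simulation thus checks the computation and does not give error rates for the real libraries, where 19.6% of genes were called, or for genes with fewer counts. Reads carry no molecular identifiers, so intervals and limits from 3 counts cover counting error only.

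The reference-transcript level, chosen after seeing the data, divides all counts of a gene by the effective length of its most abundant complete coding transcript with a reading frame of at least 90% of the longest. Flip and flop exons were found in the annotation by a short encoded key that differs between the forms; Grin1 cassettes are exons that the other complete coding transcripts skip.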

Additional observations from a re-analysis of the deposited data

How the results depend on the processing

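The number of detected genes, 20, lay between 19 and 25 under 6 alternatives (posterior mean TPM, rescaling to genes only, 1 reference transcript, a limit of 0.5 TPM, either library alone) or reached 29 with 10 counts in both libraries, and was 13 at a limit of 2 TPM. Over the detected genes alone the median level was 2.62 TPM. Leaving spike-ins out of the total raised all levels together, to 28.2 TPM for the AMPA sum, 17.9 for kainate, 8.33 for NMDA, 27.4 for vesicular and 69.96 for membrane transporters and 116.7 for Glul, a common factor per library that leaves the order as it was. Posterior mean TPM gave 25.7 TPM for AMPA, 8.87 for NMDA and 23.3 for vesicular transporters, a log2 ratio of 0.84 for Grin2b over Grin2d and of 1.88 for Slc1a3 over Slc1a2. Placing counts on 1 reference transcript, an alternative chosen after seeing the data, gave 6.24 TPM for NMDA, 52.5 for membrane transporters and 35.8 for Glul, log2 ratios of 1.07 for Grin2b over Grin2a, 0.74 for Grin2b over Grin2d and 2.39 for Slc1a3 over Slc1a2, and a Gria2 share of 65.0%. It reversed Glul over Slc1a3, to a log2 ratio of -0.25; by construction it takes away the weight of short transcripts. It moved 3 of the 32 levels by over 1.5 times (Glul, Grin2a and Grm8), and the posterior mean moved 5, all below 1 TPM as deposited (Grin2b, Grin3b, Grm5, Grm6 and Grm7).

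The same 6 genes differed between the pools with DESeq2 size factors, total counts, no count filter or posterior mean counts. edgeR's exact test used a common coefficient of variation of 0.0668 estimated from these same libraries. At an adjusted p under 0.05 it called 1 of 30 genes (Slc17a8), beside 1.38% of all genes tested. At an unadjusted p under 0.05 there were 4 of the 30, and the share of all genes at that limit was not computed. The leading transcript was shared in 13 of 14 genes under both estimates. No paired analysis was possible because there is 1 group. Depth limits Grm6, Grin3b and Slc17a8 most, with under 20 counts in each library, and then Slc1a1, Slc1a6, Grid1, Grm3, Grm5, Grm7, Grm8 and the 4 Grin2 genes, each with under 100.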
